A study of Homo sapiens with 5 samples.

Results

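Steel factor (SF) was set against erythropoietin (Epo) in TF-1 cells that carried the empty, GFP-marked retroviral vector MSCV-GFP. TF-1, a human erythroleukaemia cell line, depends on GM-CSF or a related cytokine and stands in for early erythroid cells in the laboratory. The comparison was defined by its samples, the vector SF array minus the vector Epo array, which are 2 of the 5 arrays of the series. All probe sets with a single gene symbol entered, 19065 of 22283, and they stand for 11963 genes. Vector cells were treated with SF at 20 ng/mL for 6 h, or with Epo for 6 h at a dose that the labels do not give. The other 3 arrays were TF-1 cells with the vector MSCV-DbSCL for an SCL protein defective in DNA binding (mutant SCL) under SF at 20 ng/mL and under Epo, and vector cells under GM-CSF at 5 ng/mL, all for 6 h. All 5 groups had been deprived of growth factor overnight. The labels do not say whether the transduced cells were a pool or a clone.

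SF and Epo act through receptors of different kinds. SF binds c-Kit, the receptor tyrosine kinase encoded by KIT, whose own kinase activates the RAS-ERK and PI3K-AKT pathways. Epo binds EPOR, a cytokine receptor without a kinase of its own, which signals through the kinase JAK2 to the transcription factor STAT5. Both cytokines keep erythroid progenitors alive and dividing, and Epo is needed for the later steps of red cell formation.

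With 1 array per group there was no replicate check, no standard error and no p-value, and each difference below is one array minus another on the log2 scale. No array of unstimulated cells was compared, so a gene described as lower under SF may equally be called higher under Epo. A spread of a single difference was estimated without replicates, from the SF minus Epo difference in vector cells minus that in mutant SCL cells. It ran from 0.14 in the dimmest of 10 bins of signal to 0.24 in the brightest, and it includes any real difference between the cell populations. Signals below a log2 value of 4.45 (the floor) were set to it, and a gene was compared when at least 1 of the 2 arrays lay above it, which held for 8312 genes. The median SF minus Epo difference over these genes was 0.00. It moved with brightness: over 10 bins of signal it was 0.00 in the 7 dimmest and -0.03, -0.07 and -0.06 in the 3 brightest, and in mutant SCL cells it was -0.05, -0.05 and -0.04 in those 3. List medians and counts below 0 are not matched on brightness. A small median below 0, or a surplus of members below 0, cannot be told apart from this trend. The difference was exactly 0 for 1103 of the 8312 genes. The deposited signals were identical on both arrays for 16.4% of the probe sets.

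Array controls were not level. Averaged over 3 probe sets, the 18S ribosomal RNA signal in vector cells was 8.22 under SF and 7.45 under Epo, 8.32 under SF and 7.99 under Epo in mutant SCL cells, and 9.02 under GM-CSF. The 28S control, also from 3 probe sets, was closer, at 8.43 under SF against 8.28 under Epo in vector cells, 8.34 and 8.54 in mutant SCL cells, and 8.97 under GM-CSF. The hybridization controls read 9.76 on vector SF and 9.31 on vector Epo, 10.32 under SF and 9.51 under Epo in mutant SCL cells, and 10.26 under GM-CSF. For beta-actin the signal at the 3' end less that at the 5' end, a measure of how far the labelled RNA reaches towards the 5' end, was 1.89 on vector SF, the lowest of the 5 arrays, and 2.74 on vector Epo. That of GAPDH was 1.58 on vector SF, again the lowest, and 2.05 on vector Epo. Of the 12 markers of the progenitor line, 10 were on the array with a single symbol, and all 10 were above the floor under both cytokines. Markers of other cell types were present in part. All 3 mast cell markers, CPA3, TPSAB1 and FCER1A, were above the floor on both arrays, from 5.00 to 7.18 under SF and from 5.06 to 7.28 under Epo. So were 3 of 4 T and B cell markers (CD3D, CD3E and CD79A, but not MS4A1), the endothelial marker TEK but not CDH5, and the platelet marker PF4 but not PPBP. The monocyte markers CD14 and CSF1R were below the floor on both arrays. By their labels all samples are the TF-1 line, so these signals are not a count of other cells. Whether they are expression in the line or array background was not tested.

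At 1.5-fold (a log2 difference of 0.58), 29 genes were higher and 96 were lower under SF than under Epo, which is 0.349% and 1.15% of the genes compared. At 2-fold the counts were 1 higher, TCF3 (0.012%), and 2 lower, PDSS1 and CSTB (0.0241%). For TCF3, 10 other probe sets above the floor differed by -0.17 to 0.24. Examples of the lower genes, named with their values known, were the proteasome genes PSMA1 and PSMD8 and PDSS1 of coenzyme Q synthesis. Others were ALDH18A1 of proline synthesis, ASNS of asparagine synthesis, and the thioredoxin system genes TXNRD1 and PRDX3. Examples of the higher genes, named in the same way, were the ribosomal protein genes RPLP2 and RPL27A, and SET, H3-3A, PRKDC and MTA1. The split between higher and lower depended on scaling: with quantile normalization 35 were higher and 55 lower, and with loess centring 37 and 66.

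**Figure D1:**
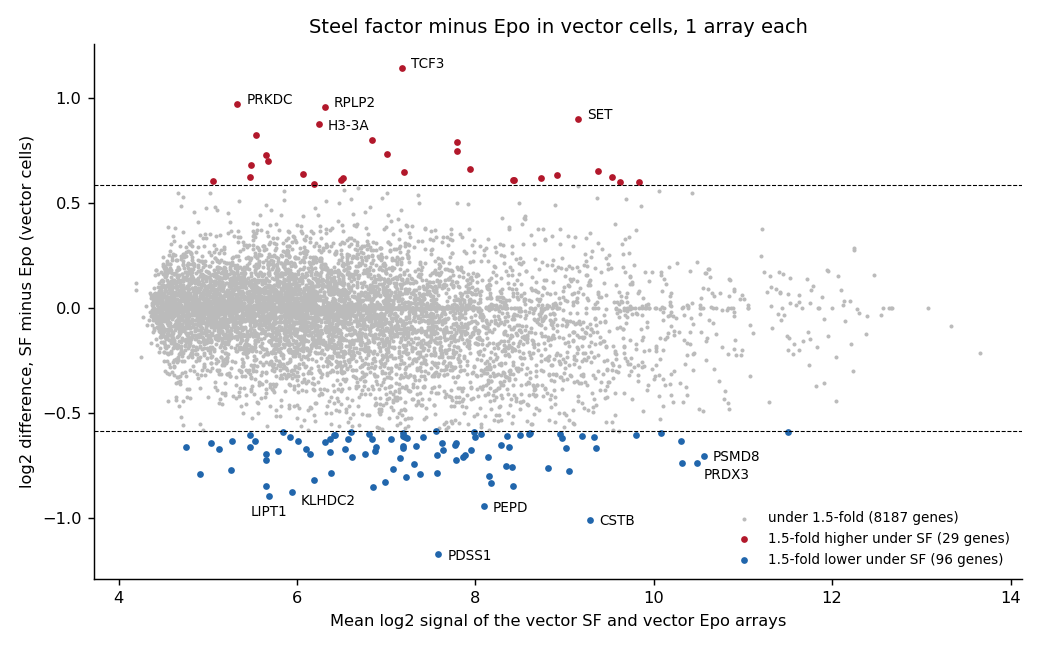
Difference between the vector SF and vector Epo arrays (log2, y axis) against their mean log2 signal (x axis) for the 8312 genes compared. Red points are the 29 genes 1.5-fold or more higher under SF, blue points the 96 that were lower, and the dashed lines mark 1.5-fold; the blue points outnumber the red ones and extend to PDSS1 at -1.17.

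Members just inside and just outside 1.5-fold differed little. RALY (0.59) was the last gene counted as higher and the splicing factor gene SRSF1 (0.58) the first left out. SP3 (-0.59) was the last counted as lower and SRSF7 (-0.58) the first left out. On single probe sets, 55 of 11768 were 1.5-fold higher (0.467%) and 136 were lower (1.16%).

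The promoters of 4 genes are shown because the genes are taken up below and a motif of a known regulator lies in them. They are the 250 bases before the RefSeq gene start in GRCh38.p14, 5' to 3' on the gene's strand, with the motif in capitals. ASNS (chr7:97872409-97872658, minus strand) and IARS1 (chr9:92293698-92293947, minus strand) hold the amino acid response element core TGATGNAA, bound by ATF4 with a C/EBP partner, starting at positions -68 and -13 from the start. In IARS1 it is read on the other strand. TXNRD1 (chr12:104215529-104215778, plus strand) holds the antioxidant response element core TGACNNNGC, bound by NRF factors, from position -99. JUND (chr19:18281623-18281872, minus strand) holds the cAMP response element TGACGTCA, bound by CREB and ATF factors, from position -200.
ASNS: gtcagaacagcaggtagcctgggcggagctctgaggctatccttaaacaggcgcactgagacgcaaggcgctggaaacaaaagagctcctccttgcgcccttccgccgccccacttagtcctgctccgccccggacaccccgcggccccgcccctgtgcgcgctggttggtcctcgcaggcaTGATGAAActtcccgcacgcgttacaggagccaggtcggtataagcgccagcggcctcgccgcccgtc
IARS1: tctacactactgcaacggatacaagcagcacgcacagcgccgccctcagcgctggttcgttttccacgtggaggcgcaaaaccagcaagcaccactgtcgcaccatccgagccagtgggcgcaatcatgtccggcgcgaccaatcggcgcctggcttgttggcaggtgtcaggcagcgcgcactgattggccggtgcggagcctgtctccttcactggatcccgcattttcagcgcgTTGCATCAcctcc
TXNRD1: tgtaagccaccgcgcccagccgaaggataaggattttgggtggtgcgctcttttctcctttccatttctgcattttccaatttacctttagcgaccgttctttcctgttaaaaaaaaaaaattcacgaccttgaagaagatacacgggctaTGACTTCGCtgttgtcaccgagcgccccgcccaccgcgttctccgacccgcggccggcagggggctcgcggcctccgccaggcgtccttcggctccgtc
JUND: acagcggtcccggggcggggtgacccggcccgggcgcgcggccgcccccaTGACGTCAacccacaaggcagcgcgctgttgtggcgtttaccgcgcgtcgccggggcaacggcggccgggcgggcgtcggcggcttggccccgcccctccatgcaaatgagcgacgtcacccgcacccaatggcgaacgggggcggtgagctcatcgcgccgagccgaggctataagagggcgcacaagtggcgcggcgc

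PDSS1 encodes a subunit of the enzyme that makes the isoprenoid tail of coenzyme Q. Its signal was 7.0 under SF against 8.17 under Epo in vector cells, 7.06 and 6.88 under SF and Epo in mutant SCL cells, and 6.37 under GM-CSF. The vector difference was -1.17, or 2.26-fold. The vector Epo array stood above the other 4, which lay between 6.37 and 7.06. CSTB, the cathepsin inhibitor cystatin B, read 8.79 under SF against 9.80 under Epo in vector cells, 8.68 and 8.37 in mutant SCL cells, and 8.26 under GM-CSF. Its vector difference was -1.01, or 2.01-fold. PEPD, the peptidase that splits dipeptides ending in proline, read 7.62 under SF against 8.57 under Epo in vector cells, 7.90 and 7.59 in mutant SCL cells, and 7.20 under GM-CSF. For CSTB and PEPD too the vector Epo array was the highest of the 5. The mutant SCL differences of these 3 genes were 0.19, 0.31 and 0.32, above 0 in each case.

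LIPT1, a lipoyltransferase of mitochondrial dehydrogenases, had a vector difference of -0.90, with signals of 5.24 under SF and 6.14 under Epo. It read 5.24 on both mutant SCL arrays. KLHDC2, a substrate receptor of a ubiquitin ligase, was at 5.50 under SF and 6.38 under Epo (-0.88). CKAP2, a protein of spindle microtubules, was at 6.42 and 7.28 (-0.85), and it was lower under SF in mutant SCL cells as well, by less (-0.35). The nucleic acid binding protein gene FUBP3 differed by -0.85 and WDR77, the partner of the arginine methyltransferase PRMT5, by -0.85. The other WDR77 probe set above the floor gave 0.00. TMEM165 of the Golgi membrane (-0.83), PCCB, a subunit of propionyl-CoA carboxylase (-0.83), the receptor gene ADIPOR2 (-0.80), the dCMP deaminase gene DCTD (-0.79) and ALG9 of N-glycan assembly (-0.79) were close to each other in size. HMG20B, of a histone demethylase complex (-0.82), and ARPC1A, a subunit of the complex that nucleates branched actin (-0.81), complete the 15 lowest.

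TCF3 encodes the E proteins that pair with SCL, and it had the highest difference. The probe set that stands for it read 7.74 under SF against 6.60 under Epo in vector cells (1.14, or 2.21-fold), 9.62 and 7.73 in mutant SCL cells (1.89), and 10.00 under GM-CSF. RPLP2, a protein of the ribosomal stalk, read 6.79 under SF against 5.83 under Epo in vector cells (0.96), 7.56 and 6.68 in mutant SCL cells (0.87), and 8.45 under GM-CSF. From high to low, both genes put the 5 arrays in 1 order, vector GM-CSF, mutant SCL SF, vector SF, mutant SCL Epo and vector Epo, and the 18S control put them in that order as well, while the 28S control did not. The hybridization controls gave the same order except that mutant SCL SF (10.32) stood above vector GM-CSF (10.26). The part of what these controls measure in the differences of the 2 genes was not tested. In contrast, 10 further probe sets for TCF3 differed by -0.17 to 0.24, and a second one for RPLP2 by -0.20. The assignment of the bright TCF3 probe set to TCF3 is the platform's annotation and was not checked against its sequence.

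**Figure D2:**
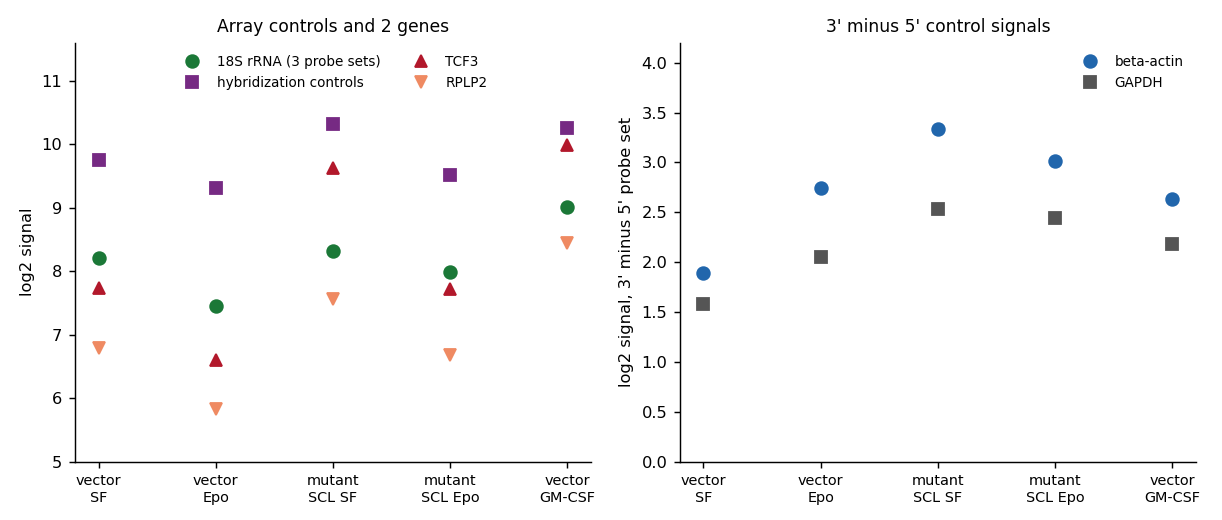
Left, log2 signals of the 18S control (mean of 3 probe sets), the hybridization controls, TCF3 and RPLP2 on each of the 5 arrays; right, the 3' minus 5' log2 signal of beta-actin and GAPDH. 18S, TCF3 and RPLP2 were lowest on vector Epo (7.45, 6.60 and 5.83), and the 3' minus 5' signals were lowest on vector SF (1.89 and 1.58).

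PRKDC, the catalytic subunit of the DNA-dependent protein kinase, read 5.82 under SF against 4.85 under Epo in vector cells (0.97). It read 4.85 and 4.84 under SF and Epo in mutant SCL cells and 4.34, below the floor, under GM-CSF. The vector SF array was thus the one that stood apart for PRKDC, and another PRKDC probe set gave 0.47. PKM, the glycolytic enzyme pyruvate kinase, had the same pattern, with 8.27 under SF against 7.61 under Epo in vector cells (0.66) and between 7.29 and 7.56 on the other 3 arrays. SET, a histone chaperone and inhibitor of a protein phosphatase, read 9.60 under SF against 8.70 under Epo in vector cells (0.90), 9.60 and 10.10 in mutant SCL cells, and 9.65 under GM-CSF. Its other probe set gave 0.65, so both SET probe sets were past 1.5-fold. For SET the vector Epo array was the low one.

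H3-3A, a gene of the histone variant used outside replication (0.87), the mitochondrial ribosome genes MRPL52 (0.82) and GADD45GIP1 (0.68), the splicing factor gene SF3A2 (0.80) and the ribosomal protein gene RPL27A (0.79) were also among the 15 highest. The RNA-binding protein gene EWSR1 (0.75), MTA1 of a deacetylase complex (0.74), INHBC, an inhibin subunit (0.73), the tubulin gene TUBB4A (0.70) and CAPNS1, the small calpain subunit (0.65), complete them. Other probe sets gave 0.11 for EWSR1, 0.00 for MTA1, -0.01 for INHBC, 0.33 for SF3A2 and 0.42 for GADD45GIP1. H3-3A, RPL27A and RPLP2 belong to families with close copies in the genome, and reads of such copies on these probe sets cannot be told apart here.

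**Figure D3:**
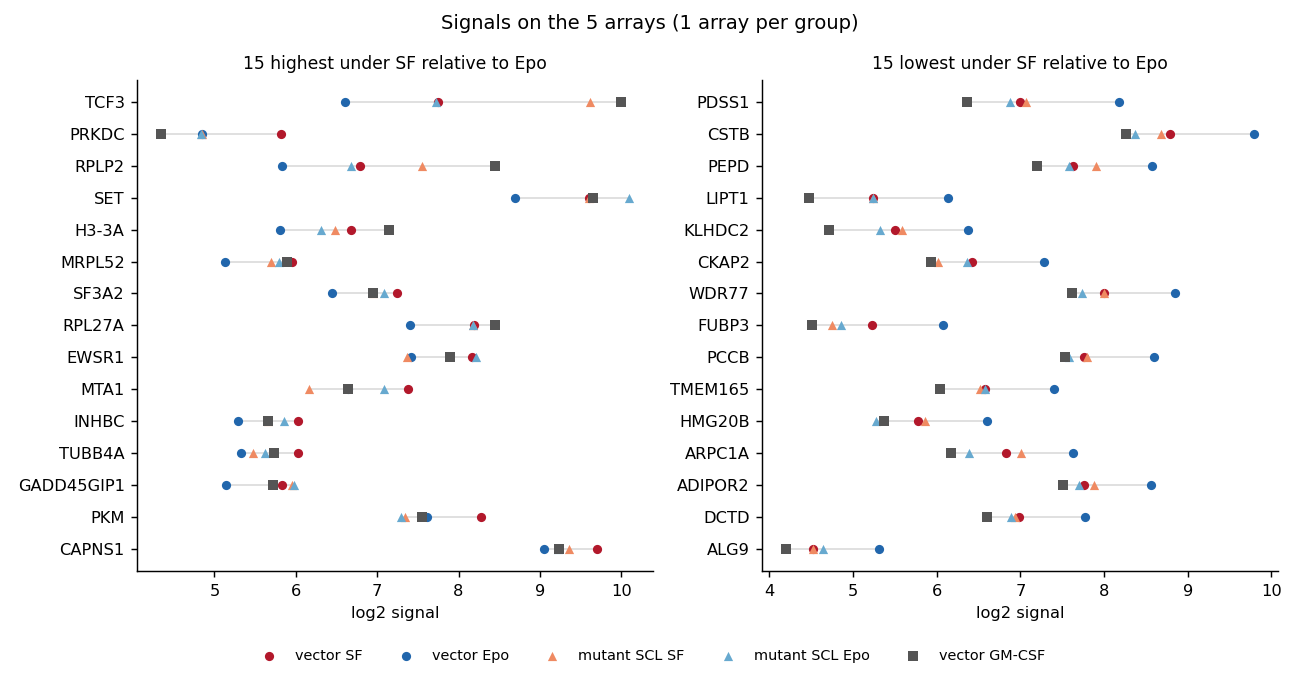
Log2 signals (x axis) of the 15 genes with the highest (left) and the 15 with the lowest (right) SF minus Epo difference on the 5 arrays, 1 array per group. In the right panel the vector Epo array is the highest of the 5 for every gene shown; in the left panel the vector SF array lies apart for PRKDC (5.82) and PKM (8.27).

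Across the called genes the vector Epo array took the outer place. It was the highest of the 5 arrays for 96 of the 96 genes lower under SF, while it was the highest for 27.0% of all genes compared. For all 96 the mutant SCL Epo signal was nearer to the vector SF signal than to the vector Epo signal. The median signal of the 96 genes was 6.93 under SF against 7.65 under Epo in vector cells, 6.83 and 6.87 under SF and Epo in mutant SCL cells, and 6.33 under GM-CSF. Of the 29 higher genes, the vector Epo array was the lowest of the 5 for 20, against 21.2% of all genes, and the vector SF array was the highest for 18, against 9.6%. Their median signal was 7.38 under SF against 6.60 under Epo in vector cells, 6.95 and 7.09 in mutant SCL cells, and 7.14 under GM-CSF. The rule that chose these genes uses both vector signals, so these positions describe them and test nothing.

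The mutant SCL pair holds the same cytokine contrast on 2 other arrays. In mutant SCL cells 77 of 8472 genes were 1.5-fold higher (0.909%) and 237 lower (2.8%) under SF than under Epo. Of the 29 genes higher in vector cells, 10 were above 0 in mutant SCL cells (34.5%), where 45.1% of the 8247 genes compared in both pairs were. Of the 95 lower genes that could be compared, 49 were below 0 (51.6%), where 44.1% of those genes were. The medians in mutant SCL cells were -0.08 for the higher and -0.03 for the lower genes, against vector medians of 0.65 and -0.67. Over 7986 genes with signals above that floor on the 4 arrays of both pairs, the 2 sets of differences had Pearson's r of 0.10 and Spearman's rho of 0.12 across genes, which are not independent replicates. The cells of the pairs differ in SCL, so a difference between the pairs and a deviation of 1 array cannot be told apart.

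TCF3 and RPLP2 were the 2 genes past 1.5-fold upward in both pairs, or 6.9% of the 29 and 2.6% of the mutant SCL calls in that direction. Of all genes compared in both pairs, 0.922% were 1.5-fold higher in mutant SCL cells. In vector cells the other probe sets above the floor gave -0.17 to 0.24 for TCF3 and -0.20 for RPLP2. Downward there were 4 genes past 1.5-fold in both pairs, or 4.21% of the 95 and 1.69% of the mutant SCL calls. Of all genes compared in both pairs, 2.87% were 1.5-fold lower in mutant SCL cells. RTCA, an RNA 3'-phosphate cyclase, read 7.42 under SF against 8.14 under Epo in vector cells (-0.72), 6.54 and 7.42 in mutant SCL cells (-0.88), and 6.32 under GM-CSF. PJA2, a ubiquitin ligase, read 6.13 under SF against 6.74 under Epo in vector cells (-0.61) and 5.18 and 6.03 in mutant SCL cells (-0.84). The SF signal was below the Epo signal in both pairs for these genes. RAB11FIP1, of recycling endosomes, differed by -0.78 in vector and -0.61 in mutant SCL cells, and the mitochondrial ribosome gene MRPL13 by -0.62 and -0.63. These 4 genes had no other probe set above the floor.

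**Figure D4:**
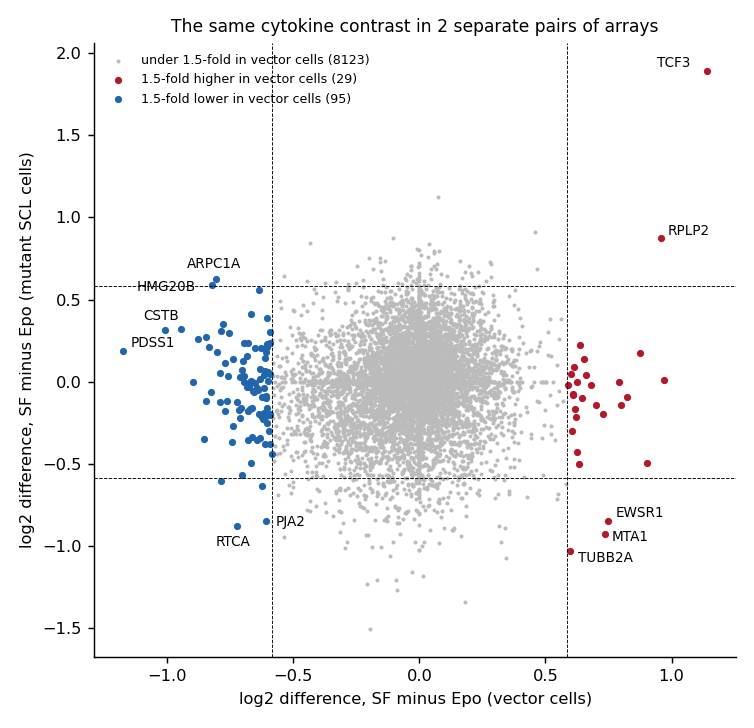
SF minus Epo difference (log2) in vector cells (x axis) and in mutant SCL cells (y axis), each from 1 pair of arrays, for the 8247 genes compared in both. Dashed lines mark 1.5-fold; of the 29 red genes 2 are past it upward in mutant SCL cells (TCF3 and RPLP2), and of the 95 blue genes 4 are past it downward.

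The receptors and their signalling genes gave no call. Calls in this and the later gene lists stand beside 0.349% of all genes compared called higher and 1.15% called lower. KIT read 7.04 under SF against 7.02 under Epo in vector cells (0.02), and 6.33 and 6.62 in mutant SCL cells. EPOR read 8.41 under SF against 8.46 under Epo in vector cells (-0.05). CSF2RB, the common beta chain of the GM-CSF receptor, read 8.12 and 8.36 (-0.24), and CSF2RA lay near the floor (4.66 and 4.68). In the list of KIT proximal signalling 0 of 20 compared genes were past 1.5-fold in either direction, with a median of -0.05 and extremes at the ERK-activating kinases MAP2K2 (0.22) and MAP2K1 (-0.55). In the list of Epo and GM-CSF receptors and JAK-STAT it was 0 of 14, with a median of -0.07. There STAT6 was highest (0.04) and JAK1 lowest (-0.39), STAT5A and STAT5B differed by -0.08 and 0.02, and JAK2 was near the floor on both arrays (4.35 and 4.54).

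Targets of the 2 pathways gave no call either at 6 h, the only time measured, so earlier responses were not seen. Of STAT5 target and feedback genes 0 of 15 were past 1.5-fold and the median was -0.07. CISH, a feedback inhibitor that STAT5 induces, read 7.33 under SF and 7.40 under Epo (-0.07). PIM1, a survival kinase that STAT5 induces, read 8.93 under SF against 9.37 under Epo in vector cells (-0.44), and 8.72 and 9.31 in mutant SCL cells (-0.59), so it was lower under SF in both pairs. SOCS2, another feedback inhibitor, differed by -0.39 in vector cells and -0.09 in mutant SCL cells. BCL2L1 was the highest of this list (0.28), and MYC differed by -0.06. Of the 26 ERK immediate early and feedback genes on the array, 16 were compared, and 0 of 16 were past 1.5-fold. Their median was 0.01, with ETV5 highest (0.22) and DUSP5 lowest (-0.30). EGR1 read 4.88 on both arrays, and DUSP6 and SPRY2 were below the floor on both.

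Growth arrest and survival genes were near 0 as lists, with single genes below. The FOXO and growth arrest list had 0 of 18 past 1.5-fold and a median of 0.00. Its lowest member was CDKN1B, the cyclin-dependent kinase inhibitor p27, at 5.38 under SF against 5.94 under Epo in vector cells (-0.56), and 4.69 and 5.38 in mutant SCL cells (-0.69). Its highest was PIK3IP1 (0.21). The BCL2 family had 0 of 13 and a median of 0.02, between PMAIP1, a death-promoting member (-0.50), and BAK1 (0.31). PMAIP1 was lower in mutant SCL cells too (-0.47), while BAK1 was at -0.68 there.

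Erythroid genes differed little between the cytokines. In the list of erythroid and SCL complex transcription factors TCF3 was the 1 of 20 past 1.5-fold, and the median was 0.00. That call comes from the brightest TCF3 probe set, while 10 others above the floor gave -0.17 to 0.24. GATA2, a factor of progenitors and mast cells, read 10.34 under SF against 9.79 under Epo in vector cells (0.56), 9.91 and 9.65 in mutant SCL cells (0.26), and 10.39 under GM-CSF. Its other probe sets gave 0.24 and 0.41 in vector cells, so all 3 were higher under SF, short of 1.5-fold. GATA1 differed by 0.11, and TAL1, which encodes SCL, by -0.29 with -0.08 for its other probe set. Of the globin and haem synthesis list 1 of 20 was lower, ALAS1, a first enzyme of haem synthesis (-0.62). The list median was -0.04 and AHSP was highest (0.18). ALAS2, in the same list, gave no call, with -0.26 in vector cells and 0.36 in mutant SCL cells. Of the erythroid membrane and surface list 1 of 17 was lower, the scavenger receptor gene CD36 (-0.68, with 0.17 for its other probe set), with a median of -0.02 and ADD1 highest (0.21). The iron handling list had 0 of 13, a median of -0.12, and extremes at PCBP2 (0.42) and NCOA4 (-0.47).

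Markers of other lineages gave 2 calls. In these bulk samples of the TF-1 line, fewer cells expressing a gene and less RNA per cell cannot be told apart. TPSB2, a mast cell tryptase with a near-identical copy, was higher under SF (0.62, 5.78 against 5.16 under Epo), 1 of 9 compared mast cell and basophil markers, whose median was 0.04 and whose lowest was FCER1A (-0.10). TPSB2 read 5.70 on both mutant SCL arrays. TPSAB1, another tryptase gene of the list, read 5.82 under SF against 5.81 under Epo in vector cells (0.02). PLVAP, of endothelial diaphragms, was higher (0.65), 1 of 7 endothelial markers, with a median of 0.07 and TIE1 lowest (-0.19). The stem and progenitor markers (0 of 7, median 0.00, ERG 0.10 and MLLT3 -0.14), myeloid markers (0 of 6, median 0.03, CEBPE 0.15 and ITGAM -0.21), lymphoid markers (0 of 13, median 0.06, CD22 0.27 and IL7R -0.22) and megakaryocyte markers (0 of 8, median 0.00, PLEK 0.37 and ITGA2B -0.37) held no call.

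The proteasome, the protease complex that degrades ubiquitin-tagged proteins, had 2 of 27 compared subunits past 1.5-fold downward and 20 of 27 below 0, where 48.6% of all genes were. PSMA1, a subunit of the core ring, read 9.94 under SF against 10.69 under Epo in vector cells (-0.74), 9.94 and 9.81 in mutant SCL cells, and 9.45 under GM-CSF. Its 2 other probe sets gave -0.72 and -0.62, so all 3 were past 1.5-fold. PSMD8, of the regulatory particle, read 10.21 under SF against 10.91 under Epo in vector cells (-0.70), and 10.22 and 10.15 in mutant SCL cells. The list median was -0.15 in vector cells and 0.06 in mutant SCL cells. There 10 of 27 subunits were below 0, beside 44.1% of genes compared in both pairs, and 0 of 27 were past 1.5-fold. PSMC3 was the highest subunit (0.17).

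Amino acid supply genes held 1 call. Of 26 genes that answer a lack of amino acids or misfolded protein, many of them under the factor ATF4, 20 were below 0, where 48.6% of all genes compared were, and 1 was past 1.5-fold. That was ASNS, asparagine synthetase, at 5.70 under SF against 6.33 under Epo in vector cells (-0.63), and 5.96 and 5.94 in mutant SCL cells. ATF4 itself differed by -0.32 in vector cells and 0.31 in mutant SCL cells, and PPP1R15A was highest (0.19). The list median was -0.09 in vector cells and 0.00 in mutant SCL cells. Of the aminoacyl-tRNA synthetases, which load amino acids onto tRNA, 0 of 16 were past 1.5-fold and 11 were below 0, beside the same 48.6%. Their median was -0.14 in vector cells and 0.01 in mutant SCL cells. SARS1 (-0.53) and IARS1 (-0.51) were lowest and FARSA (0.20) highest.

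A further 4 called genes outside the lists act in amino acid supply or the thioredoxin system, and they were picked after their values were seen. SLC38A2, an amino acid transporter, read 8.30 under SF and 8.91 under Epo (-0.60), with -0.45 for its other probe set. ALDH18A1, of proline synthesis, read 7.22 under SF and 7.92 under Epo (-0.70). TXNRD1, thioredoxin reductase, was at -0.61, and PRDX3, the mitochondrial peroxiredoxin that thioredoxin keeps reduced, at -0.74 with -0.02 for its other probe set. In mutant SCL cells these 4 gave -0.16, 0.13, -0.38 and -0.27.

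Other biosynthetic lists had few calls, beside 0.349% of all genes compared called higher and 1.15% called lower. The isoprenoid, coenzyme Q and prenyl transfer list had 2 of 14 past 1.5-fold downward, PDSS1 and RABGGTB, a subunit that attaches geranylgeranyl groups to RAB proteins (-0.68), with a median of -0.14 and DHDDS highest (0.12). Cholesterol and fatty acid synthesis had 0 of 22, a median of -0.02, FADS2 highest (0.52) and INSIG1 lowest (-0.49). Glycolysis and hypoxia had PKM as the 1 higher of 24, while 18 were below 0, where 48.6% of all genes were. Its median was -0.14, and P4HA1, a collagen hydroxylase, was lowest (-0.53 in vector and -0.56 in mutant SCL cells). The list median was 0.07 in mutant SCL cells. The list of lysosome genes, cathepsins and cystatins had 2 of 25 lower, the cystatin gene CSTB and the membrane protein gene LAMP2 (-0.75, other probe set -0.32). Its median was 0.00 and CTSD was highest (0.29). The respiratory chain had 1 of 33 lower, the cytochrome gene CYC1 (-0.60), a median of -0.01 and NDUFV2 highest (0.38).

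The lists of DNA replication, mitosis and nuclear pore genes held 1 call. Called genes outside these lists, such as CKAP2 of spindle microtubules (-0.85), are not counted here. Counts below 0 stand beside 48.6% of all genes in vector cells and 44.1% in mutant SCL cells. DNA replication and G1/S had 1 of 30 lower, MCM10, which starts replication forks, at 7.30 under SF against 7.95 under Epo in vector cells (-0.64), and 6.80 and 7.16 in mutant SCL cells (-0.36). Of this list 21 of 30 were below 0 in vector cells and 17 of 29 in mutant SCL cells, with medians of -0.11 and -0.09, and TK1 was highest in vector cells (0.32). Mitosis and G2/M had 0 of 28 past 1.5-fold and 19 below 0, with medians of -0.06 in vector and -0.07 in mutant SCL cells, between PLK1 (0.18) and CCNB1 (-0.54). Nuclear pore and transport genes had 0 of 33 past 1.5-fold and 23 below 0, with medians of -0.15 and -0.09, between NUP43 (0.33) and NUP85 (-0.56).

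Ribosomal protein genes were the list with the highest median, 0.07 in vector cells, with 26 of 40 above 0, where 38.2% of all genes were. RPLP2 and RPL27A were the 2 past 1.5-fold, and RPL3 was lowest (-0.37). In mutant SCL cells the median was 0.00 and 18 of 40 were above 0, beside 45.1% of genes compared in both pairs. RPL38 read 11.54 under SF and 11.51 under Epo in its brightest probe set, while 2 other probe sets each gave 0.81. MYC targets and ribosome biogenesis had 0 of 22 and a median of 0.00, with GAR1 highest (0.55, against -0.68 in mutant SCL cells) and WDR12 lowest (-0.45). Splicing factors had HNRNPU higher (0.60, others 0.07 and 0.10) and SF3B1 lower (-0.60, others -0.37 to 0.20) among 33, with a median of 0.00. Translation initiation had 0 of 34 and a median of -0.09, between DOHH (0.36) and EIF2AK2 (-0.56, other probe set 0.25). Cytosolic chaperones had 0 of 20 and a median of -0.04, between HSPB1 (0.34) and CCT6A (-0.57, other probe set 0.08).

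**Figure D5:**
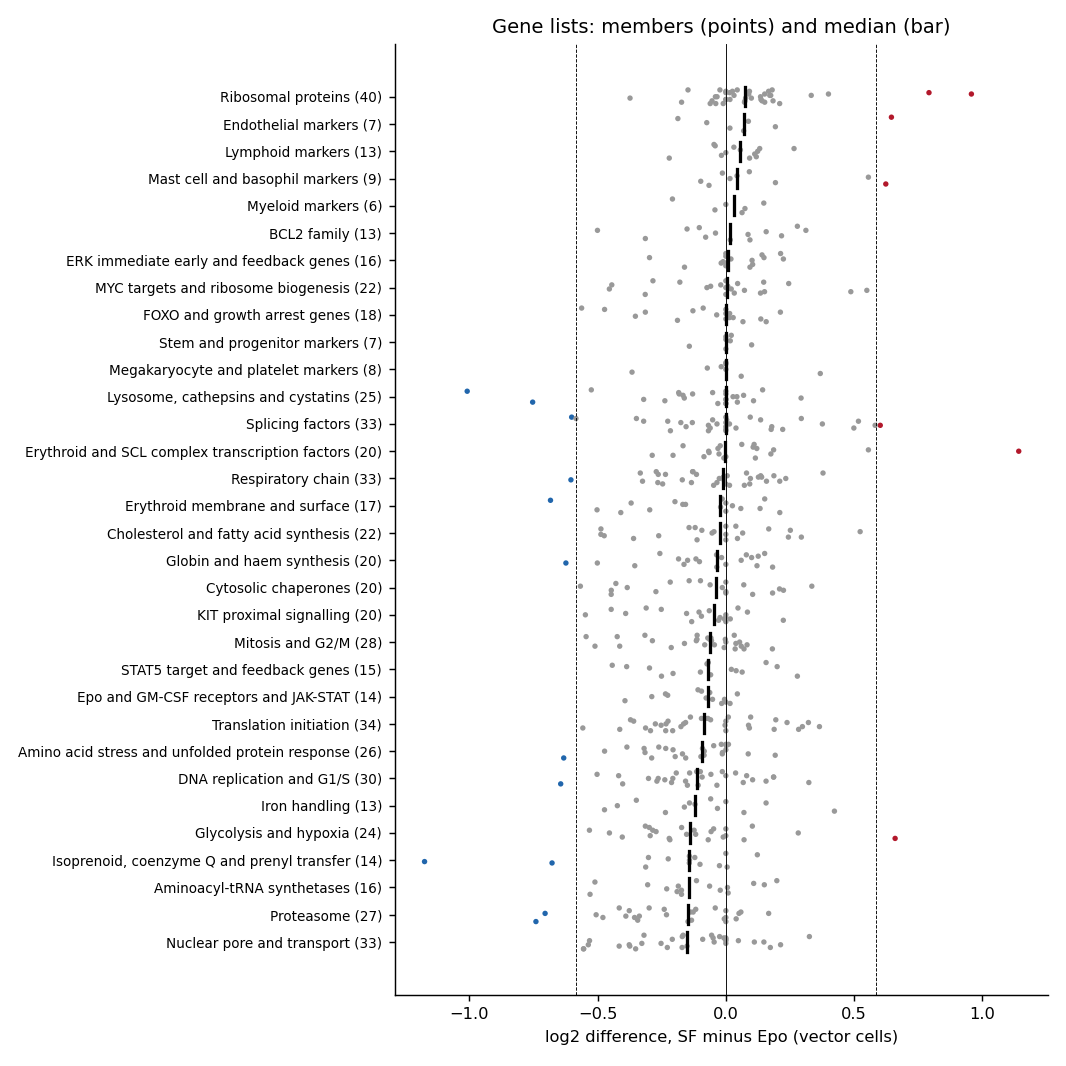
SF minus Epo difference (log2, x axis) in vector cells of the compared members of the 32 gene lists, with their number in parentheses; points are genes, bars are list medians and dashed lines mark 1.5-fold (red higher, blue lower). The medians lie between -0.15 (nuclear pore and transport) and 0.07 (ribosomal proteins), and most members lie within 1.5-fold.

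Other probe sets of the called genes are described first, without a test, and they come from the same 2 arrays. HLA-DPA1, an MHC class II gene, and DCTD were lower in all their probe sets above the floor (-0.91 to -0.14 and -0.79 to -0.05). For each gene 2 of them were past 1.5-fold, the probe set that made the call included. Of the 24 lower genes with another probe set above the floor, the others all had the same sign for 16. Of 13 higher genes this held for 7. The same share over all genes compared was not counted. Features that the rule did not use were then set beside those of all genes compared, as descriptions with no test. The probe set that stood for the gene was of a type that can match several transcripts or genes (name ending in _s_at or _x_at) for 72.4% of the higher and 49.0% of the lower genes, against 45.4% of all genes compared. The median genomic length was 12.4 kb for the higher genes, 41.6 kb for the lower genes and 27.4 kb for all genes compared. The ranges overlapped widely, with interquartile ranges of 5.15 to 32.6 kb for the higher and 16.1 to 75.6 kb for the lower genes.

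For sequence features, 6 motifs were searched on both strands of the 300 bases around the gene start (250 before and 50 after), which were at hand for 26 of the 29 higher, 82 of the 96 lower and 6794 of all compared genes. The cAMP response element TGACGTCA was found for 5 higher genes (19.2%), which were JUND, CDC37, RPLP2, SEMA4C and TUBB2A. It was found for 2.4% of the lower genes and for 3.3% of all compared genes (2.0% of all promoters in the table). JUND differed by 0.63 in vector cells. In mutant SCL cells JUND, CDC37, SEMA4C and TUBB2A were below 0 (-0.42, -0.17, -0.08 and -1.03), and RPLP2 was above it (0.87). The other probe set above the floor gave -0.20 for RPLP2 and 0.11 for SEMA4C in vector cells. The antioxidant response element core TGACNNNGC was found for 11.5% of the higher, 22.0% of the lower and 15.6% of all compared genes (13.6% of all promoters). The STAT site TTCNNNGAA was found for 3.8% of the higher, 6.1% of the lower and 6.4% of all compared genes (7.9% of all promoters), and the GATA site AGATAA for 3.8%, 4.9% and 5.5% (10.5%). The amino acid response element core TGATGNAA was found for 0 higher and 2 lower genes, ASNS and DCTD, and for 1.9% of all compared genes (3.7% of all promoters). The sterol regulatory element TCACNCCAC was in 0 of both sets and in 1.0% of all compared genes (1.1% of all promoters). Matches of different motifs may overlap, and a match in this window is a description only.

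Within the 2 amino acid lists, the response element core lay in 4 of 23 stress gene promoters and 5 of 13 synthetase promoters. The 9 genes with it, ASNS and IARS1 among them, had a median difference of -0.26 (from -0.63 to 0.15), and the 27 without it one of -0.11 (from -0.53 to 0.20). The ranges overlap. In mutant SCL cells ASNS gave 0.01 and IARS1 0.02.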

How the data were processed

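RNA of 5 TF-1 samples was labelled with biotin and read on 5 Affymetrix arrays, per the labels' protocols. The authors deposited 1 log2 signal per probe set and array; the log2 unit follows from the range of the values, from 2.08 to 13.77. The summary method, the software and any normalization between arrays are not given in the sources used here, and they could compress differences of dim probe sets. Of the 22283 probe sets, 68 were array controls, 1043 had several symbols and 2107 others had none. Gene identifiers of 19053 of the 19065 probe sets with 1 symbol were found in the RefSeq gene table (GRCh38.p14), and 0 symbols changed.

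Values were used as deposited. For the 4310 genes with several probe sets the brightest, by its mean signal, was used. The floor is the 40th percentile over all probe sets except controls. Genes were counted at 1.5-fold and 2-fold, and no test was run with 1 array per group, whose number limits the precision. The 32 gene lists (796 genes, 693 on the array, 631 compared) came from general knowledge. The comparison, lists and rules were chosen with earlier results of these data known, and the antioxidant motif was added after the differences were seen. Named were genes past 2-fold, the 15 highest and lowest, those past 1.5-fold in both pairs or in 2 probe sets, called and extreme list members, and 17 fixed signalling genes. The counting was tested on simulated data. Promoters are RefSeq's. Python 3.11.15, pandas 2.3.3, numpy 2.4.6, scipy 1.17.1 and statsmodels 0.14.6 were used. Each alternative, described at the end, changed 1 choice.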

Additional observations from a re-analysis of the deposited data

Results flagged for a closer look

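For 5 genes the SF minus Epo difference was past 1.5-fold in 1 direction in vector cells and past it in the other direction in mutant SCL cells. The difference between the 2 populations was not tested, since each rests on 1 pair of arrays. TUBB2A, a beta-tubulin gene, was higher under SF in vector cells (0.60, with 9.93 under SF and 9.33 under Epo) and lower in mutant SCL cells (-1.03, with 8.16 and 9.19). MTA1 gave 0.74 in vector cells and -0.92 in mutant SCL cells, with 0.00 for its other probe set in vector cells. EWSR1 gave 0.75 and -0.85. ARPC1A gave -0.81 in vector cells and 0.62 in mutant SCL cells, and HMG20B gave -0.82 and 0.59.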

How the results depend on the processing

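Of the 9 alternatives, the number of genes 1.5-fold higher under SF was outside 1.5 times the 29 for the mean of all probe sets (15) and for probe sets other than _x_at and _s_at (13). The number lower was outside 1.5 times the 96 for those probe sets (59) and for quantile normalization (55). These are raw counts over unequal numbers of genes. Without _x_at and _s_at probe sets 5115 genes were compared, and with the mean of all probe sets 7630, against 8312 in the main count. Quantile normalization compared 8384. A smaller count over fewer genes is therefore not by itself a smaller share. No gene called in vector cells was called in the opposite direction under any alternative, and 44 of the 125 genes, 10 higher and 34 lower, were past 1.5-fold in every alternative that included them. Without _x_at and _s_at probe sets, 5 of the 68 called genes that could still be compared changed sign, INHBC (-0.008), RPLP2 (-0.20), NASP (-0.05), SYNCRIP (-0.18) and NAMPT (0.09), of which the last 3 are named after their values were seen. The other alternatives turned the sign of 0 called genes. The share of called genes with the same sign in mutant SCL cells, 47.6% of 124, became 57.6% of 132 with median centring. That alternative lowered the mutant SCL differences by 0.04, so values of 0 or just above it fell below 0. In the main count 4 of the lower genes stood at exactly 0 in mutant SCL cells. How much of the rise came from such values was not counted. The proteasome median lay between -0.19 and -0.07 and that of amino acid stress between -0.17 and -0.02 over the alternatives, while the medians of the STAT5 list (-0.09 to 0.01) and of mitosis (-0.08 to 0.01) crossed 0. No paired analysis was possible because each group had 1 array, and for the same reason no array could be left out.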
